A study of Mus musculus with 11 samples.

Results

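In a murine model of melanoma progression, 100 of 14272 genes with a deposited value were on in every library of the mesenchymal-like lines 4C and 4C11- and off, or nearly so, in every library of the epithelial lines melan-a and 4C11+. They were chosen by these measured values: the lowest of the 6 libraries of 4C and 4C11- had to be above 0 and at least 4 log2 units above the highest of the 5 libraries of melan-a and 4C11+. Genes whose symbols start with Col or Hox, the collagens and the Hox cluster genes, were left out, although 10 of them also passed the distance, so 110 genes (0.771% of all) passed it with any symbol. The difference between the phenotypes is therefore what defines the set, and it is described below without a test. The rule did not compare 4C11- with 4C or 4C11+ with melan-a, and these comparisons were tested. It used the values of all these lines, however, which limits how far the lines of a phenotype can differ.

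Total RNA of 4 cell lines was sequenced. Melan-a is represented here by replicates 2 and 3, and 4C, 4C11- and 4C11+ by 3 libraries apiece, 11 in all. Melan-a is a line of spontaneously immortalized, nonmalignant melanocytes, grown in RPMI medium with serum and 200 nM of the phorbol ester PMA. The other 3 lines descend from it through rounds in which the cells were kept from attaching, and they were grown without PMA: 4C is a pre-malignant line that forms no tumors, 4C11- a melanoma line that does not metastasize and 4C11+ a metastatic melanoma line. Each stage is represented by a single line, and the PMA in the medium of melan-a cannot be told apart from the line. The names epithelial and mesenchymal-like are those of the study.

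Values are the deposited log2 CPM (reads of a gene scaled to the size of its library, on the log2 scale). The 11 libraries share their highest value, as after quantile normalization, so a value need not keep the exact scale of its library. Single reads make steps among the low values, and these steps gave the number of reads behind each low value. The step at 40 reads put the depth at 3.50 to 7.42 M reads per library, which is a rough estimate for the same reason. The library medians lay between 4.57 and 4.58. The correlation across genes between libraries of a line was lowest, at 0.888, for 4C11- replicates 1 and 3. A gene is called at the floor where each library concerned held 3 reads of it or fewer, and its difference is then given as a lower bound, taken from the value that 3 reads have. The replicates are separate cultures according to the labels.

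Melanocytes derive from the neural crest, an embryonic cell population that leaves the neural tube by an epithelial-mesenchymal transition (EMT). In that process cells lose attachments to their neighbors, take on a motile shape, secrete extracellular matrix and switch on transcription factors of the Snail, Twist and Zeb families. In melanoma, a related switch runs between a pigmented, differentiated state kept by the factor Mitf and dedifferentiated states with many mesenchymal features. Matrix proteins, contractile actin and secreted signals of the Wnt, BMP and TGF-beta families are among the genes that such cells commonly express.

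The labels were checked against marker genes first. In 4C and 4C11-, 10 of the 11 melanocyte markers with a deposited row were lower than in melan-a and 4C11+ without overlap, and the summed level of the 11 was 7.02 to 9.81 CPM in 4C and 6.76 to 13.5 in 4C11-, against 1977 to 9283 in melan-a and 11510 to 13816 in 4C11+. Of 12 fibroblast markers only 6 had a row in the tables used here (Col1a2, Thy1, Dcn, Lum, Fap and Prrx1 had none), and 5 of these 6 were higher without overlap. Their sums were 1978 to 2632 CPM in 4C and 4C11- and 26.5 to 206 CPM in melan-a and 4C11+, and most of the high sums was Col1a1, which itself passed the distance of 4. The higher of these low sums came from melan-a replicate 2, in which Pdgfrb, a receptor of fibroblasts and pericytes, stood at 6.90, against 0.89 in replicate 3. Whether other cells had a part in the values of this library was not tested. In bulk RNA, more cells of a type and more RNA per cell cannot be told apart. The names of the phenotypes fit the EMT markers only in part. Of 9 such markers, 4 were higher in 4C and 4C11- without overlap and 2 lower. Fn1 (fibronectin), Snai2 and Zeb2 overlapped between the phenotypes. Snai1 and Twist2 belong to the 100 genes, and Twist1 and Zeb1 were higher in 4C and 4C11- without reaching the distance of 4. Vim (vimentin) was lower in 4C and 4C11-, at 9.85 to 10.34 against 10.91 to 11.91, and so was Cdh2 (N-cadherin), at -3.44 to -3.15 against 6.71 to 8.28. Both are usually counted among the mesenchymal genes. Cdh1 (E-cadherin), the usual epithelial marker, was low in all lines, at -0.70 to 1.21 in melan-a and 4C11+ and at -2.01 to 1.36 in 4C and 4C11-.

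The rule was also applied with single libraries left out. Leaving out any of 10 libraries in turn gave 102 to 107 genes, the 100 among them, and leaving out melan-a replicate 2 gave 158. With melan-a alone as the epithelial side 172 genes passed, and with 4C11+ alone 252. Under this rule, leaving out libraries can only add genes. The 100 thus had to stay in each of these counts, which are no test of their stability. Of the 100 genes, 98 were annotated as protein-coding (83.8% of all deposited genes), and the other 2 are the antisense transcript Gm29100 and the long non-coding RNA G730013B05Rik. The distance between the lowest mesenchymal-like and the highest epithelial library had a median of 5.21 and reached 8.36, and 36 genes were more than 6 log2 units apart. The 3 genes just inside the threshold were Clic6 at 4.02, Fxyd1 at 4.03 and Lrrc15 at 4.08, and the 3 just outside were Aox3 at 3.95, Cacna1g at 3.94 and Rap1gap2 at 3.93. By the looser criterion that the libraries of both phenotypes did not overlap, 974 genes (6.82%) were higher in 4C and 4C11- and 1007 (7.06%) were lower.

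**Figure D1:**
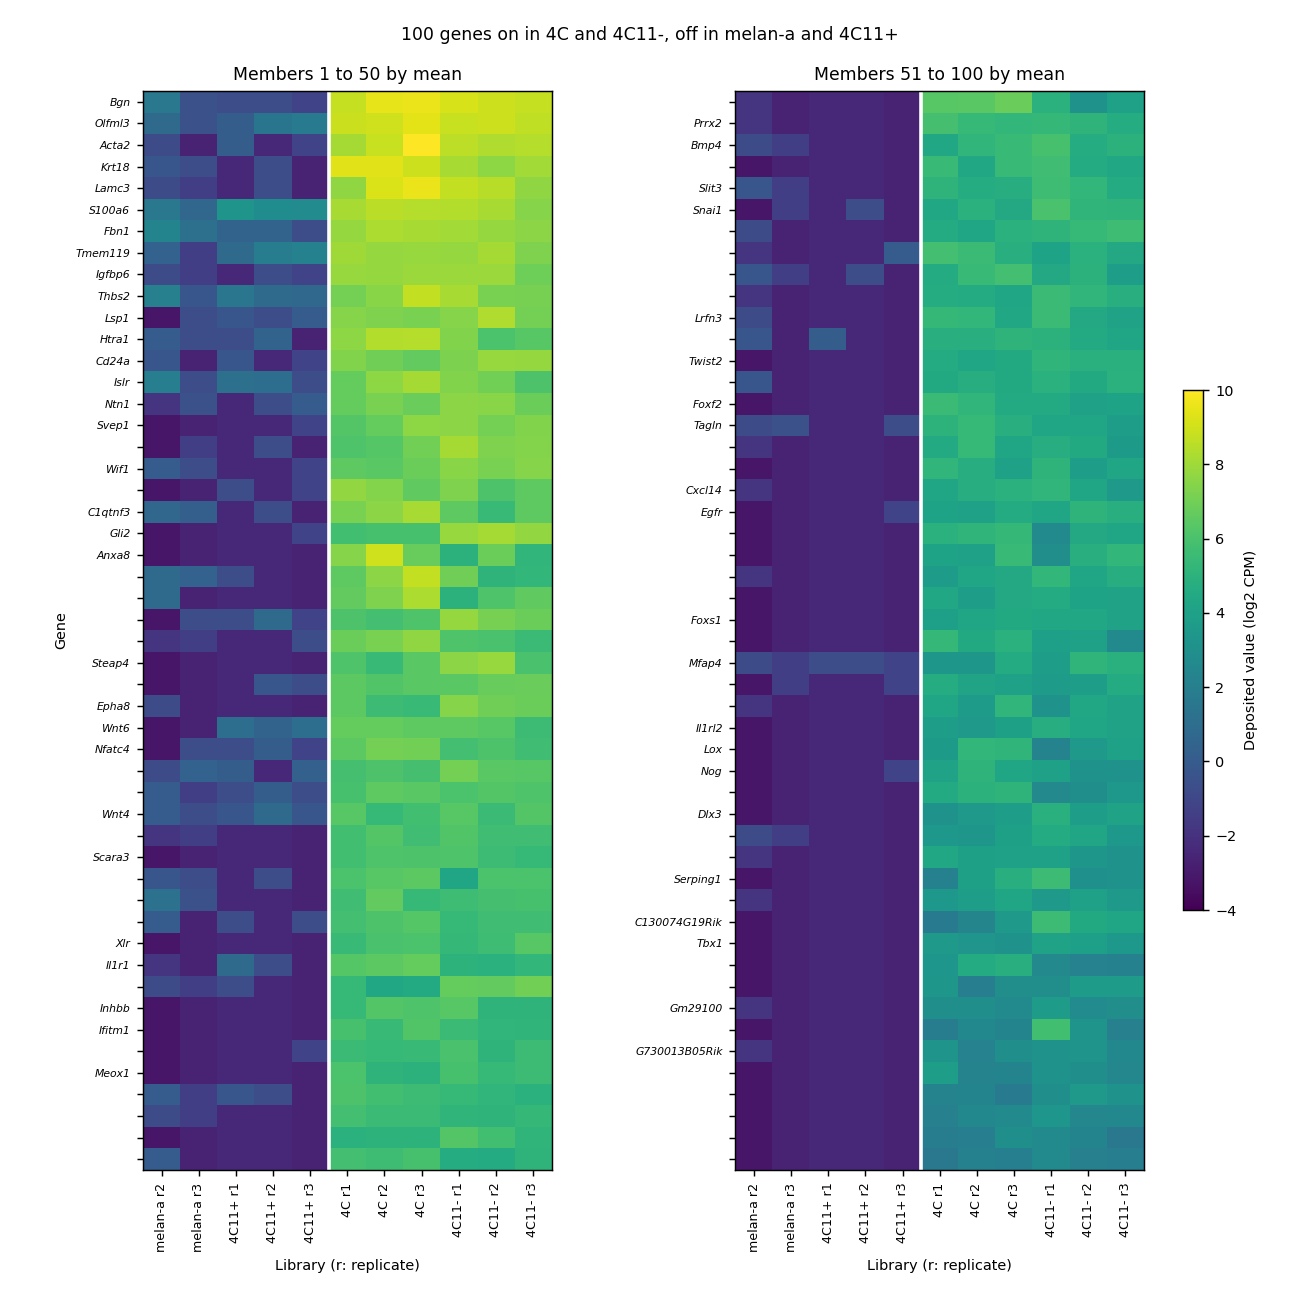
The 100 genes in the 11 libraries, ordered by their mean over 4C and 4C11-, with the deposited log2 CPM as color and names for the genes on a gene list or highest by mean or distance. The white line parts the 5 libraries of melan-a and 4C11+ on the left from the 6 of 4C and 4C11- on the right, and most fields left of it are near the floor, with those of S100a6 in 4C11+ (2.77 to 3.23) the brightest.

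For 75 of the 100 genes, none of the 5 libraries of melan-a and 4C11+ held more than 3 reads, and 32 genes had no read in any of them. These 32 include Anxa8, Steap4, Scara3, Inhbb, Meox1, Foxa2, Twist2, Foxf2, Tbx1, Dlx3 and Lox. By line, 81 genes were at the floor in melan-a and 85 in 4C11+. The remaining 25 genes had more than 3 reads in at least 1 of the 5 libraries, some of them in melan-a replicate 2 alone. F5 had 7 reads and Aim2 4 in this library and none in the other 4. The number of the 100 genes at 3 reads or fewer was 82 in melan-a replicate 2, 94 in replicate 3 and 90 to 93 in the libraries of 4C11+. Of the 25, 7 had more than 10 reads in a library. These were S100a6 (up to 39 reads), Tmem119 (23), Fbn1 (19), Olfml3 (17), Thbs2 (16), Islr (15) and Bgn (12). In 4C and 4C11-, no gene of the set was at the floor in any library, and the means over these 6 libraries ran from 2.08 (Clic6) to 9.12 (Bgn), with a median of 5.29 against 4.57 over all genes. Per kb of exon the medians were 3.63 and 2.43 on the log2 scale.

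**Figure D2:**
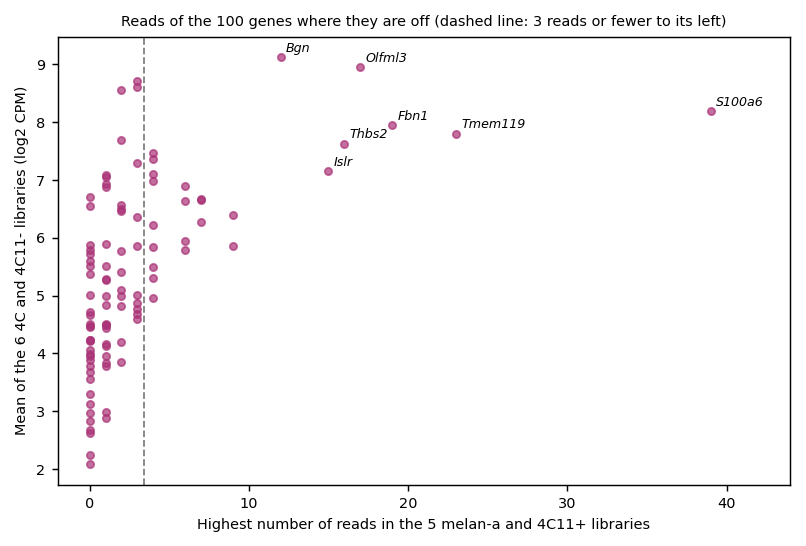
Each point is 1 of the 100 genes, with the highest number of reads in any library of melan-a and 4C11+ on the x axis and the mean log2 CPM of the 6 libraries of 4C and 4C11- on the y axis. Genes left of the dashed line had 3 reads or fewer in all 5 epithelial libraries (75 genes), and the 7 named genes had more than 10 in at least 1 of them.

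Promoter sequences were available for 70 of the 100 genes, from RefSeq on GRCm38.p6, and are shown for 8 on which the description below turns: the EMT factors Snai1 and Twist2, the developmental factors Gli2 and Foxa2, the keratin Krt18, the smooth muscle actin Acta2, and the neighbors Amigo2 and Pced1b, which start close together on opposite strands and overlap at their 5′ ends, so that each of their windows lies inside the other gene. Each sequence is the 250 bases before the RefSeq start site, read 5′ to 3′ along the strand of the gene. Capitals mark the motifs that were searched on both strands: the E-box CACCTG, which Snail and Zeb factors bind, the TATA box TATAAA, the AP-1 site TGACTCA, the TEAD site GGAATG, the Mitf-type E-box TCATGTG and the CCAAT box, with ATTGG as its reverse complement.
Snai1 (GRCm38.p6 chr2:167537945-167538194, plus strand): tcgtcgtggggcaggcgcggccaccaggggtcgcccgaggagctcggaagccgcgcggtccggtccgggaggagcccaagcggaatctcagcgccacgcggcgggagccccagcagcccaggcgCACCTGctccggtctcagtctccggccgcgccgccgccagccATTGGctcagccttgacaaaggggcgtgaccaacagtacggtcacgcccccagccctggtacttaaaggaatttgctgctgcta
Twist2 (GRCm38.p6 chr1:91801211-91801460, plus strand): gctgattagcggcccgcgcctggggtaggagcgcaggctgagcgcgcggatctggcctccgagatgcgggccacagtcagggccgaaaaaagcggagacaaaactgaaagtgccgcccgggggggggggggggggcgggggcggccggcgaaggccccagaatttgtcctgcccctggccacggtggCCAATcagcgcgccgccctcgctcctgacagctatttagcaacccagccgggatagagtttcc
Gli2 (GRCm38.p6 chr1:119053620-119053869, minus strand): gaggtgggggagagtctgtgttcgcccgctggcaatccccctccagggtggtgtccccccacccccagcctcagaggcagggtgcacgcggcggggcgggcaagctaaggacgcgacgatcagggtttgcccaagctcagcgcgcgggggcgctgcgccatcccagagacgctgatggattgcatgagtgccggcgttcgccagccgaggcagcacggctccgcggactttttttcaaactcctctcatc
Foxa2 (GRCm38.p6 chr2:148046970-148047219, minus strand): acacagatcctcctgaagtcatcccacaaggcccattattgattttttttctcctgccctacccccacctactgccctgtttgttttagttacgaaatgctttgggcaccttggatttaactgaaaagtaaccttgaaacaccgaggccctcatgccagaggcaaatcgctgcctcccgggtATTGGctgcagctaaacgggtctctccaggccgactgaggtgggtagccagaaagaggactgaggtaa
Krt18 (GRCm38.p6 chr15:102027966-102028215, plus strand): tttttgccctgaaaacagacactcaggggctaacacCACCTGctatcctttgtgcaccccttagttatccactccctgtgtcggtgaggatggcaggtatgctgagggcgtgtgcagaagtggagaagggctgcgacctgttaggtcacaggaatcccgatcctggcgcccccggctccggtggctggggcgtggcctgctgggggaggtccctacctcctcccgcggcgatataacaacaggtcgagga
Acta2 (GRCm38.p6 chr19:34255374-34255623, minus strand): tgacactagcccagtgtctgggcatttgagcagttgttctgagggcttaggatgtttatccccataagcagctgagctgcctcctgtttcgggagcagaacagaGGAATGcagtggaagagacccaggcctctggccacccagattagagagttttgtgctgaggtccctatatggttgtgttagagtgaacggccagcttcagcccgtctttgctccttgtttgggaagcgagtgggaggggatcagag
Amigo2 (GRCm38.p6 chr15:97247288-97247537, minus strand): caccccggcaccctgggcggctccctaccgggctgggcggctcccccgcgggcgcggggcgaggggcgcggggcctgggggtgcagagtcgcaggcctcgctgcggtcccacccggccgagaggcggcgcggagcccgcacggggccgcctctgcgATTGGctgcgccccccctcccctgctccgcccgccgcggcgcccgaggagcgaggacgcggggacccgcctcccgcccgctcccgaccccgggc
Pced1b (GRCm38.p6 chr15:97246857-97247106, plus strand): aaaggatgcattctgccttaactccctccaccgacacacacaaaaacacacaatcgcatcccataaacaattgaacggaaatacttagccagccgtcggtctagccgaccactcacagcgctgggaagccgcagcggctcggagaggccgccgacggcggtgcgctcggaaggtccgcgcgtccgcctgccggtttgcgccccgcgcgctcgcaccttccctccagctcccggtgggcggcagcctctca

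In these windows, the CACCTG element began 126 bases before the start of Snai1, and a CCAAT box on the opposite strand 84 bases before it. The Krt18 promoter held CACCTG 214 bases before the start, that of Twist2 a CCAAT box at 63 bases and that of Acta2 the TEAD motif at 146 bases. No searched motif lay in the 250 bases shown for Gli2 and Pced1b. Over all 70 promoters and the full window of 300 bases, CACCTG was present in 18.6% (16.7% of the 9928 promoters of deposited genes), TATAAA in 14.3% (6.81%), GGAATG in 14.3% (12.0%), CCAAT in 32.9% (39.0%), TGACTCA in 2.86% (3.30%) and TCATGTG in 2.86% (2.11%). The promoters of the set were poorer in CpG dinucleotides than others. The ratio of observed to expected CpG had a median of 0.577 against 0.773 and was above 0.6, a usual limit of CpG islands, in 30 of the 70 (42.9%) against 73.7% of all. Both kinds occurred among the genes shown, from 0.27 in Acta2 to 1.143 in Pced1b. These shares are a description, and the 30 genes with no promoter entry are not in them. For some genes the RefSeq start site lay far from the start of the annotated gene, and their windows are counted too. Examples are Spats2l (71409 bases), Aim2 (69725) and Islr (45752).

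Genes of the extracellular matrix were among the highest of the set. Of 74 matrix glycoproteins and proteoglycans with a deposited value, 7 belonged to it (0.70% of all genes did). Without overlap, 30 were higher in 4C and 4C11- (6.82% of all genes were) and 5 lower (7.06% of all genes were). The median difference of the list was 1.53 log2 units against -0.09 over all genes. Bgn (chrX:73483602-73495933) encodes biglycan, a small proteoglycan that binds collagen fibrils. It stood at 8.80, 9.48 and 9.59 in 4C and 9.18, 8.94 and 8.77 in 4C11-, against 1.63 and -0.54 in melan-a and -0.70, -0.70 and -1.16 in 4C11+. All 6 high values lay within 0.82 log2 units, and among the low ones melan-a replicate 2, with 12 reads, stood above the rest. The mean difference between the phenotypes was 9.28 log2 units.

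Lamc3, a laminin chain of basement membranes (chr2:31887291-31946539), showed the largest distance of the set, 8.36. Its values were 7.66, 9.18 and 9.61 in 4C and 8.70, 8.52 and 7.67 in 4C11-, while no library of melan-a or 4C11+ held more than 2 reads, so it was at least 8.74 log2 units higher. It overlaps Gm13441 on the opposite strand. Fbn1, the microfibril protein fibrillin-1, stood at 7.80 to 8.26 in 4C and 7.58 to 8.05 in 4C11-. It kept 19 and 12 reads in melan-a and 2 to 4 in 4C11+. Thbs2, a matricellular thrombospondin, ranged from 7.09 to 8.72 in the 6 libraries and from -0.24 to 2.07 in the other 5. The other matrix genes were Igfbp6, a secreted binder of insulin-like growth factors, at least 7.88 log2 units higher, Svep1, a large adhesion protein, at least 7.28 higher, and the microfibril-associated Mfap4, at least 4.39 higher. Mfap4 shares exonic sequence on the opposite strand with Mapk7, and it is unknown whether the counting used the strand, so reads of the pair cannot be told apart here.

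Olfml3, a secreted olfactomedin-like protein, was second by mean, at 8.86 to 9.41 in 4C and 8.66 to 8.92 in 4C11-. It had 7 and 3 reads in melan-a and 3, 10 and 17 in 4C11+. Of the 53 enzymes, proteases and inhibitors that act on the matrix, 3 belonged to the set. Without overlap, 18 were higher (34.0%, against 6.82% of all genes) and 3 lower. The secreted serine protease Htra1 stood at 7.62, 8.41 and 8.42 in 4C and at 7.34, 6.05 and 6.37 in 4C11-. Lox, the enzyme that crosslinks collagen and elastin, was lower and more scattered, at 3.60, 5.28 and 5.17 in 4C and 2.26, 3.57 and 4.03 in 4C11-, with no read in any other library. Serping1, the C1 inhibitor of complement, spread over 3.43 log2 units within the 6 libraries. Islr, an immunoglobulin- and leucine-rich-repeat protein that marks mesenchymal stromal cells, stood at 6.09 to 8.09. The 4 collagens left out by symbol (Col1a1, Col3a1, Col6a3 and Col12a1) followed the same pattern, with Col1a1 at 10.87 in 4C, 10.57 in 4C11-, 1.42 in melan-a and 1.76 in 4C11+ (means).

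Contractile and intermediate-filament genes contributed 3 members of 42. Without overlap, 12 were higher (28.6%, against 6.82% of all genes) and 2 lower. Acta2, smooth muscle actin, stood at 8.13, 8.81 and 9.96 in 4C and 8.61, 8.35 and 8.44 in 4C11-, with at most 3 reads elsewhere, so it was at least 8.90 log2 units higher. Tagln, the actin-binding transgelin, was at 3.84 to 5.40, at least 4.78 log2 units higher. It overlaps Pcsk7 and Gm48529 on the opposite strand. Other smooth muscle markers did not share this pattern: Cnn1 was at 0.60, -1.61 and 1.30 in 4C and 0.96 to 2.26 in 4C11-, against -1.42 to 1.77 in melan-a and 4C11+, and Myh11 was lower in 4C and 4C11- without overlap.

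Krt18, a type I keratin of simple epithelia, ranked first of the set per kb of exon (8.08 on the log2 scale), ahead of S100a6 (7.74), Acta2 (7.58) and Igfbp6 (7.54). It stood at 9.40, 9.36 and 8.94 in 4C and at 8.18, 7.64 and 8.08 in 4C11-, with at most 3 reads in melan-a and 1 in 4C11+. Its direction is thus opposite to what its use as an epithelial marker would name. Of 12 epithelial markers 4 had a row in the tables used here. Beside Krt18, Ocln (occludin, of tight junctions) was higher in 4C and 4C11- without overlap, at 0.70 to 3.09 against at most -1.90, while Cdh1 and Krt8 overlapped between the phenotypes. Keratins work as pairs of a type I and a type II chain. Krt8, the usual type II partner, reached only 1.96 in the 6 libraries and 0.87 in the other 5. Krt7, another type II keratin of simple epithelia, stood at 4.04, 4.60 and 5.25 in 4C and 5.77, 5.34 and 5.33 in 4C11-, against at most 0.15 in the other lines, and so fell just short of the distance. Krt7 and Krt8 were looked up after the values were seen.

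Cd24a, a sialoglycoprotein on many epithelial and progenitor cells, stood at 6.62 to 7.36 in 4C and 7.24 to 7.85 in 4C11-, with at most 3 reads elsewhere. S100a6, a calcium-binding protein found in mesenchymal and neural crest cells, was at 8.15, 8.55 and 8.43 in 4C and 8.39, 8.16 and 7.48 in 4C11-. It was also the member least silent in the epithelial lines. Lsp1, an actin-binding protein first known from leukocytes, stood at 7.10 to 8.33 in the 6 libraries, and Tmem119, known from osteoblasts and microglia, at 7.28 to 8.14. The other large distances belonged to Anxa8 (7.46), an annexin, Steap4 (7.86), a metalloreductase, Scara3 (7.84), a scavenger-receptor-like protein, Xlr (7.75), an X-linked lymphocyte-regulated gene, and Ifitm1 (7.63), an interferon-induced membrane protein. None of these 5 had a read in melan-a or 4C11+. Xlr and Ifitm1 belong to families of similar copies, between which the counting may have split reads.

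**Figure D3:**
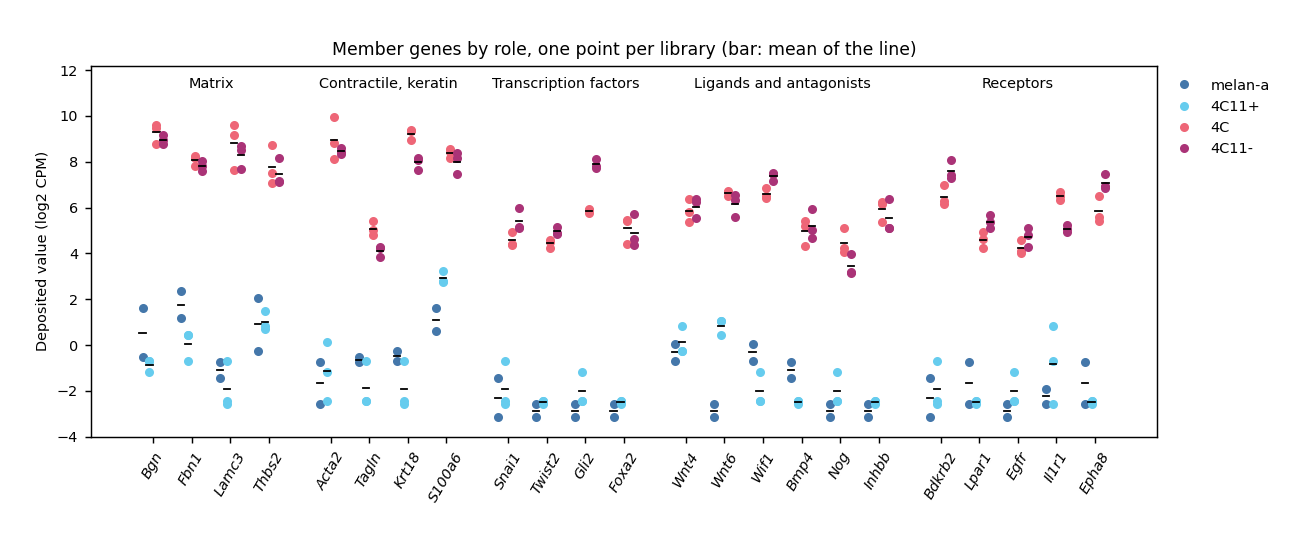
Deposited log2 CPM of 23 genes of the set, grouped by role, with 1 point per library and a bar at the mean of each line. The red and purple points of 4C and 4C11- lie above the blue points of melan-a and 4C11+ for each gene, as the choice of the genes requires, and the lines of a phenotype stand apart for genes such as Gli2 (4C11- above 4C) and Wnt6 (4C11+ above melan-a).

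No list held more genes of the set than that of the transcription factors. Of 76 mesenchymal and developmental factors with a deposited value, 10 belonged to it (13.2%, against 0.70% of all genes). Without overlap, 32 were higher in 4C and 4C11- (42.1%, against 6.82% of all) and 7 lower, with a median difference of 1.86. Snai1, the zinc-finger repressor that acts on E-cadherin, stood at 4.36, 4.95 and 4.42 in 4C and at 5.99, 5.16 and 5.13 in 4C11-, with at most 1 read in any other library. Snai2, its relative in the neural crest, was highest in melan-a, at 3.13 and 3.18 in melan-a, 0.15 to 0.88 in 4C11+ and -3.44 to 1.13 in 4C and 4C11-. Twist2, a basic helix-loop-helix factor of the dermis, was at 4.59, 4.22 and 4.52 in 4C and 5.17, 4.87 and 4.89 in 4C11-, with no read elsewhere. Twist1 was lower, at 0.91 to 1.90 in 4C and 2.83 to 3.51 in 4C11-.

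Gli2, a transcription factor of the Hedgehog pathway, was at 5.75, 5.95 and 5.91 in 4C and at 7.82, 8.13 and 7.72 in 4C11-, with at most 1 read in melan-a and 4C11+. Prrx2, a homeobox factor of limb and skin mesenchyme, stood at 4.68 to 5.86 and was at least 5.45 log2 units higher. The homeobox factor Meox1 of the somites was at least 5.69 higher, the forkhead factors Foxf2 and Foxs1 of mesenchyme and pericytes 4.85 and 4.42, Nfatc4 of calcineurin signaling 6.55, the T-box factor Tbx1 of the pharyngeal arches 3.75 and Dlx3 of skin and its appendages 4.06. Foxa2, a forkhead factor of endoderm and no member of the list, stood at 5.43, 4.42 and 5.46 in 4C and 5.73, 4.63 and 4.37 in 4C11-, with no read in the other 5 libraries. It was singled out after its values were seen.

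Of the Hox genes, developmental factors left out by symbol, 6 of 32 passed the distance (0.771% of all genes did). Without overlap, 21 were higher (65.6%, against 6.82% of all) and 0 lower. The 6 were Hoxb13 and Hoxc9 to Hoxc13 of the HoxC cluster, with Hoxc11 at 4.63 in 4C, 4.21 in 4C11-, -2.87 in melan-a and -2.49 in 4C11+ (means).

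Ligands and their secreted antagonists occurred side by side. Of 32 genes of TGF-beta and BMP signaling, 3 were members, 11 were higher without overlap (34.4%, against 6.82% of all genes) and 0 lower. Bmp4, a bone morphogenetic protein, stood at 4.32, 5.19 and 5.41 in 4C and 5.93, 4.69 and 5.01 in 4C11-. Nog (noggin), which binds and blocks BMPs, was at 4.04, 5.10 and 4.22 in 4C and 4.00, 3.21 and 3.13 in 4C11-. Inhbb, the beta B subunit of activins and inhibins, was at 5.37, 6.24 and 6.16 in 4C and 6.38, 5.10 and 5.11 in 4C11-, with no read elsewhere. The lower bounds were 5.28, 4.14 and 5.91 log2 units in this order.

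Of 35 Wnt genes, 3 were members, 12 higher without overlap (34.3%, against 6.82% of all genes) and 2 lower. Wnt4 stood at 5.37 to 6.36 in the 6 libraries and had up to 6 reads in the others, and Wnt6 at 5.61 to 6.71. Wif1, a secreted inhibitor that binds Wnt proteins, was at 6.50, 6.42 and 6.86 in 4C and 7.51, 7.17 and 7.45 in 4C11-. Nkd1, an intracellular inhibitor of the pathway that was not on the list and was named after its values were seen, was at 3.80 to 4.64 with no read in the other lines.

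Of 47 axon guidance genes, 3 were members, 10 higher (21.3%, against 6.82% of all genes) and 9 lower without overlap. The ligand Ntn1 (netrin-1) stood at 6.70, 7.18 and 6.80 in 4C and 7.57, 7.54 and 6.85 in 4C11-, with up to 4 reads in the other libraries. One of its receptors, Unc5c, lay on the opposite side, at 2.85 and 7.54 in melan-a, 6.73 to 8.53 in 4C11+ and -3.44 to -2.44 in 4C and 4C11-. Slit3, a secreted ligand of Robo receptors, was at 5.09, 4.68 and 4.75 in 4C and 5.68, 5.25 and 4.59 in 4C11-, at least 5.19 log2 units higher. Epha8, an ephrin receptor, was at 6.50, 5.61 and 5.43 in 4C and 7.46, 6.95 and 6.87 in 4C11-.

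Receptors for peptides, lipids and growth factors completed the signaling genes. Of 45 growth factors and receptor tyrosine kinases, 13 were higher (28.9%, against 6.82% of all genes) and 8 lower without overlap. Egfr was the single member among them. It stood at 4.10, 4.03 and 4.60 in 4C and 4.29, 5.13 and 4.80 in 4C11-, with at most 1 read elsewhere. Both bradykinin receptors were members: the constitutive Bdkrb2 at 6.14 to 8.09 and the inducible Bdkrb1 at 4.22 to 5.54. The lysophosphatidic acid receptor Lpar1 was at 4.26 to 5.68. Of 64 chemokines, cytokines and receptors, 15 were higher (23.4%, against 6.82% of all genes) and 5 lower without overlap, and 3 were members. These were the chemokine Cxcl14 (3.52 to 5.23), the interleukin-1 receptor Il1r1 (4.95 to 6.69) and the interleukin-36 receptor Il1rl2 (3.57 to 4.73).

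The list of complement, MHC and interferon-response genes had 18 of 79 higher (22.8%, against 6.82% of all genes) and 3 lower without overlap. Of the 79, 3 were members. Beside Serping1 and Ifitm1 this is C1qtnf3, an adipokine that entered the list by its symbol and is no complement component. Among 71 cadherins, integrins and Ig-type adhesion molecules more were lower than higher, with a median difference of -0.55. Without overlap, 10 were higher (14.1%, against 6.82% of all genes) and 19 lower (7.06% of all genes were). The share higher was thus also above that of all genes. The synaptic adhesion molecule Lrfn3 (4.06 to 5.52) was the only member. Lists without a member were Notch signaling (0 of 16), imprinted genes (0 of 21), ion channel subunits (0 of 67) and solute carriers (0 of 210), against 0.70% of all genes. At that share few or no members are due in lists of this size, so nothing about these lists follows from it. Notch signaling had 4 genes higher (25.0%, against 6.82% of all genes) and 0 lower without overlap. The imprinted genes had 2 higher (9.52%) and 2 lower, and the ion channel subunits 9 higher (13.4%) and 9 lower. Of the solute carriers, 13 were higher (6.19%, near the 6.82% of all genes) and 33 lower without overlap. Among 2228 RIKEN and predicted transcripts 3 were members (0.135%), 62 were higher (2.78%, below the share of all genes) and 113 lower. In all, 39 genes of the set were on a functional list and 58 on no list.

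**Figure D4:**
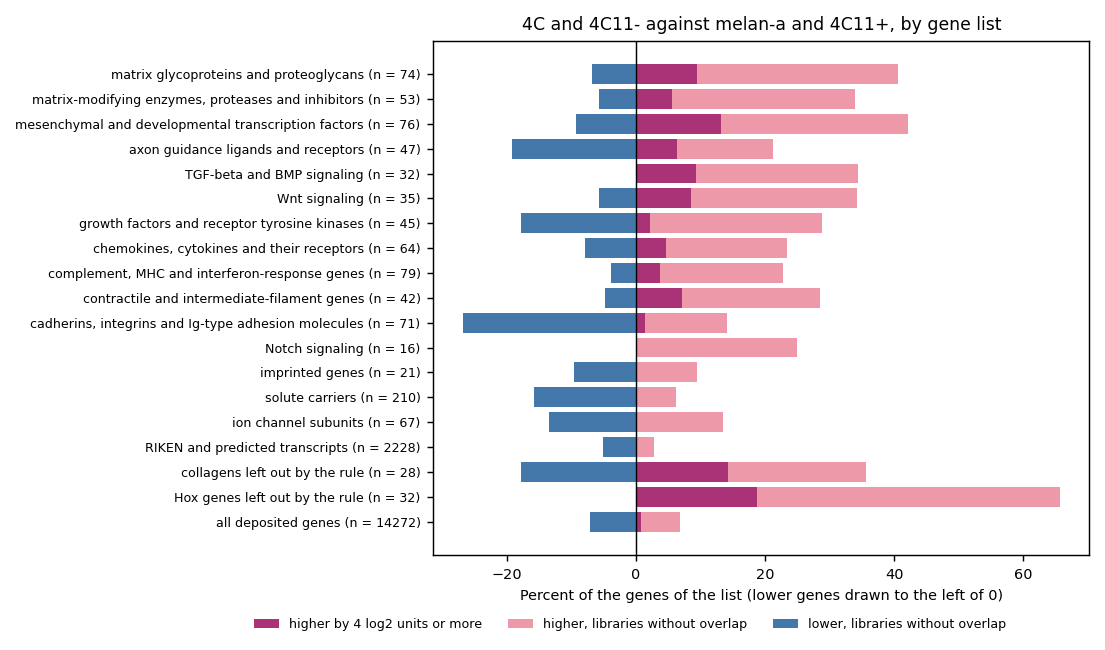
For each gene list, bars give the percent of its genes that were higher in 4C and 4C11- by at least 4 log2 units (dark red) or without overlap of the libraries (light red), and lower without overlap (blue, to the left). Over all genes 6.82% were higher and 7.06% lower, while the transcription factor list had 42.1% higher and the adhesion list more lower (19 genes) than higher (10).

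Within the 6 libraries of 4C and 4C11- the genes of the set held their level to different degrees. The range over the 6 libraries had a median of 1.38 log2 units, was below 1 for 22 genes and above 3 for 8. Narrow ranges were those of Sh3rf2 (0.57), Foxs1 (0.59) and Radil (0.59). The widest ranges belonged to Anxa8 (3.95), Zbp1 (3.79), C130074G19Rik (3.77), Parm1 (3.60) and Nxf7 (3.59). In Zbp1, a sensor of Z-form nucleic acids, the range came from 4C11- replicate 1 at 5.75, with all other values between 1.96 and 3.25. These genes were named for their ranges after the values were seen.

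Between 4C11- and 4C, a comparison the rule did not make but limits, 2 of the 100 genes passed an adjusted p of 0.05 with limma. The share called higher was 1 of 100 (1.26% of all deposited genes), and the share called lower 1 of 100 (0.406%). Gli2 was 2.02 ± 0.40 log2 units (SE, n = 3 and 3) higher in 4C11- (adjusted p = 0.0271 with limma), and its 3 values in 4C11- lay above all 3 in 4C. Nxf7, an X-linked gene of the nuclear RNA export factor family, stood at 6.35, 6.40 and 6.80 in 4C and at 4.92, 3.21 and 4.03 in 4C11-, and was 2.46 ± 0.46 lower (difference -2.46, adjusted p = 0.0203 with limma). Both calls rest on the full number of libraries. When single libraries of the 2 lines were left out, Gli2 lost its call in each of the 6 cases (adjusted p up to 0.145 with limma) and Nxf7 in each but that of 4C11- replicate 1 (up to 0.116). At an unadjusted p under 0.05 with limma, 6 genes were higher and 13 lower. The same was not counted over all genes, so nothing about the set follows from it. Of 7 endothelial markers 2 had a row in the tables used here. Cdh5 (VE-cadherin) was higher in 4C11-, at 6.73, 7.43 and 6.54 against 4.01, -0.70 and 0.44 in 4C, while Vwf overlapped between these lines (1.51 to 4.21 against 1.46 to 3.16). The summed level of both was 95.8 to 178 CPM in 4C11- and 3.38 to 21.2 CPM in 4C, and its part in these results was not tested.

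The libraries of 4C11- and 4C did not overlap for 36 of the 100 genes, 16 of them higher in 4C11- and 20 lower (19.3% of all deposited genes were without overlap). Differences of this size did not pass the test for Edn2, the vasoactive peptide endothelin-2, at 5.35, 4.34 and 4.59 in 4C and 6.72, 6.64 and 7.01 in 4C11- (2.03 ± 0.51, adjusted p = 0.0799 with limma), and for Glrp1, a glutamine-repeat protein, at 4.56, 5.00 and 5.10 and at 2.60, 2.95 and 3.48 (-1.88, adjusted p = 0.0507 with limma). Both were named after their values were seen. Krt18 was 1.26 log2 units apart without overlap (difference -1.26, adjusted p = 0.217 with limma). The median difference over the 100 genes was -0.18, and 75 of them were less than 1 log2 unit apart, with a median SE of 0.48.

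Between 4C11+ and melan-a, where these genes are near the floor, 10 of the 100 passed the test, 3 higher in 4C11+ (8.39% of all deposited genes were) and 7 lower (7.52%). The libraries of these lines did not overlap for 21 of them (46.6% of all). The value of 0 reads differs between libraries: -3.15 and -2.58 in melan-a, -2.44, -2.44 and -2.58 in 4C11+. Some of the 21 were therefore apart in value while their reads overlapped. Gli2, Egfr and Rnf144b, for example, had no read in melan-a and 0, 0 and 1 in 4C11+. The rule and the floor limit differences between these lines, so these shares are not like for like with those of all genes. Wnt6 had no read in melan-a and 7, 4 and 9 reads in 4C11+, and was at least 1.23 log2 units above the value of 3 reads (adjusted p = 8.24e-05 with limma). S100a6 had 12 and 8 reads in melan-a and 39, 28 and 37 in 4C11+, a difference of 1.83 ± 0.36 log2 units (SE, n = 2 and 3, adjusted p = 0.00621 with limma). Tmem119 had 5 and 1 reads against 6, 14 and 23 (2.15 ± 0.53, adjusted p = 0.018 with limma). In 4C11+ these 3 genes of the set were thus low but countable.

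Of the 7 lower genes, Fbn1 had 19 and 12 reads in melan-a and 4, 4 and 2 in 4C11+ (difference -1.69 ± 0.43, adjusted p = 0.0212 with limma). Shisal2b, a small membrane protein, had 9 and 3 reads against none (adjusted p = 0.0044 with limma), Parm1, a mucin-like membrane protein, 7 and 7 against 1, 0 and 0 (0.0412), and C1qtnf3 6 and 6 against 0, 1 and 0 (0.0196). As bounds, they were at least 0.31, 0.61 and 0.40 log2 units above the value of 3 reads. Wif1 had at most 4 reads in melan-a, and Slit3 and Cavin3 were at 3 reads or fewer in both lines, so no size is given for these. The summed fibroblast markers were 206 CPM in melan-a replicate 2 and 26.5 in replicate 3, against 33.7 to 50.2 CPM in 4C11+, and their part in these calls was not tested. The differences depended on melan-a, of which only 2 libraries were used. Fits that lacked 1 of them assume that the remaining library varies as those of the other lines do. For the called genes with more than 3 reads in both lines, the differences without replicate 2 were -1.10 (Fbn1), 2.34 (S100a6) and 3.06 (Tmem119). Without replicate 3 they were -2.28, 1.31 and 1.24 in this order. Wnt6 and Shisal2b kept their calls in each of the 18 alternative fits, and S100a6 in 17.

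**Figure D5:**
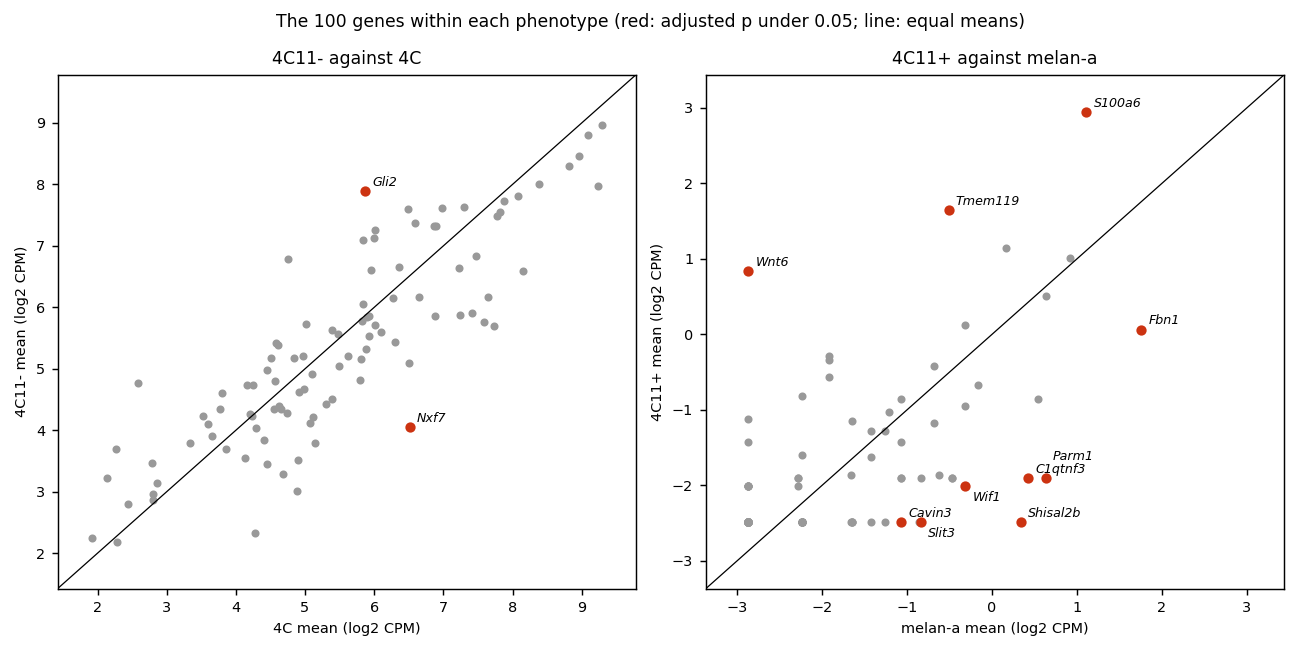
Means of the 100 genes in 4C11- against 4C (left) and in 4C11+ against melan-a (right), in log2 CPM, with a line at equal means and genes of adjusted p under 0.05 (limma) in red. Gli2 and Nxf7 stand out on the left, and the points on the right crowd at the floors of the libraries, with S100a6, Tmem119 and Wnt6 above the line.

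Several of the genes lie next to each other on the mouse genome (GRCm38). Of the 100, 18 had another member starting within 500 kb, against 969 of 14155 other mapped genes (6.85%) that had a member so near. In 6 pairs no deposited gene lay between the 2 members. Il1r1 (chr1:40225080-40317257) and Il1rl2 (chr1:40324610-40367562) are neighbors in the interleukin-1 receptor cluster, and Bdkrb2 (chr12:105563226-105595237) and Bdkrb1 (chr12:105603085-105605428) are arranged head to tail. Gli2 (chr1:118834132-119053619) and Inhbb (chr1:119415465-119422248) start 369 kb apart on the minus strand. They differed within the mesenchymal-like lines: Gli2 was higher in 4C11-, while Inhbb was 0.39 log2 units apart (difference -0.39, adjusted p = 0.752 with limma). Svep1 and Lpar1 on chromosome 4 start 347 kb apart.

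Amigo2 (chr15:97244125-97247287, minus strand) and Pced1b (chr15:97247107-97385680, plus strand) have start sites 0.18 kb apart, and their first exons overlap. Amigo2, an adhesion molecule, was at 3.75, 4.31 and 4.44 in 4C and 5.25, 4.24 and 4.70 in 4C11-, and Pced1b at 2.08, 2.52 and 2.72 in 4C and 3.37, 2.49 and 2.53 in 4C11-. The antisense transcript Gm29100 (chr1:91798528-91802937, minus strand) covers the first exon of Twist2 (chr1:91801461-91848028, plus strand). It was at 2.64 to 3.71 in the 6 libraries, and Twist2 was 1.26 to 2.10 log2 units above it in each. For both pairs, reads of the overlapping exons cannot be told apart if the counting ignored the strand. In all, 9 of the 100 genes share exonic sequence with another deposited gene, each on the opposite strand.

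Of the 10 hubs of the turquoise module, the largest group of co-expressed genes in the study, 5 belonged to the set: Slit3, Lrfn3, Gm29100, Cxcl14 and Prrx2. The study chose these hubs on the same libraries, so this is no independent evidence. Loxl1, Nid2 and H2-DMb1 were also higher in 4C and 4C11- but at distances of 2.87, 2.86 and 3.17, and Unc5c and Ankfn1 were on in melan-a and 4C11+ instead.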

How the data were processed

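Total RNA of melan-a, 4C, 4C11- and 4C11+ cells was prepared with a stranded kit after removal of ribosomal RNA. Per the labels and the study's methods, the authors trimmed the reads with Trimmomatic, aligned them with STAR to GRCm38, assigned them to genes with Rsubread, retained those reaching 1 CPM in 4 or more libraries, and made log2 CPM values with voom, which they deposited. The strand setting of the counting is not given in the sources used here. The 11 libraries share their highest value, as after quantile normalization. The deposited log2 values were used as they are. Within a library, the successive lowest values were taken as 0, 1, 2 and further reads, and the step at 40 reads gave a rough depth. Read totals are otherwise unknown.

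The 100 genes and the gene lists were chosen with earlier results of these data known. Replicates carry a number in the labels, but nothing in the labels ties same-numbered cultures together. Deviations from the line means correlated at -0.23 to 0.39 (median 0.15) over 15 same-numbered pairs and at -0.42 to 0.34 (median -0.09) over 30 others. Because not each same-numbered pair was above 0.1, the libraries were treated as unpaired. Line means over all 11 libraries were fitted in R 4.3.3 by limma 3.58.1, whose variance estimates followed a trend with the mean, and p-values were adjusted after Benjamini and Hochberg over the 14272 genes, and the fit was tested on simulated data. P-values were used for 4C11- against 4C and 4C11+ against melan-a only. Gene positions come from GENCODE on GRCm38, which matched all 100 genes, and promoters from RefSeq. The text names the 15 genes of the set with the highest mean, the 10 with the largest distance, those called in a comparison (up to 10 a direction), those nearest the threshold, on a gene list, among the hubs or next to another member, and says where others were chosen after their values were seen. Figures were drawn with Matplotlib 3.10.9 in Python 3.11.15. Melan-a replicate 1 was not analysed here, and 2 genes of the set are counted but not reported by name.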

Additional observations from a re-analysis of the deposited data

How the results depend on the processing

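The number of genes chosen by the rule was 155 at a distance of 3 and 62 at a distance of 5. It was 172 with melan-a alone and 252 with 4C11+ alone as the epithelial side, and 102 to 158 as single libraries were left out, with 158 reached without melan-a replicate 2. Leaving out a library or a line can only add genes under this rule. With the lowest mesenchymal-like library above 2, the symbols Col and Hox kept, or 4C or 4C11- alone as the mesenchymal-like side, it stayed within 1.5 times the 100. A further quantile normalization and aligned medians left it at 100. These could hardly change it, since the libraries already share their highest value and nearly share their medians. Between 4C11- and 4C, 2 genes of the set were called, 4 without the variance trend, 4 with only the 2 lines in the fit, and 0 to 3 in fits that lacked 1 library. Between 4C11+ and melan-a, 10 were called, 2 with only the 2 lines in the fit and 4 to 17 in fits that lacked 1 library. Gli2 and Nxf7 kept their direction in each of the 18 alternative fits, as did the 10 genes called between 4C11+ and melan-a, and Parm1 and Slit3 lost their calls most often (8 fits each). A replicate block called 2 genes (254) between 4C11- and 4C and 11 (1930) between 4C11+ and melan-a. Same-numbered libraries share only their number. The causes of these shifts were not tested. At the roughly estimated depth of 3.50 to 7.42 M reads, a gene at 3 reads or fewer cannot be told from an absent one. The sizes of differences between melan-a and 4C11+ are uncertain for the 75 genes at this floor.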

Other observations

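Beside the groups described above, 58 genes of the set were on no list, and several are best known from other tissues. They were picked here after their values were seen and are given as values. Genes known from neurons included Syt13, a synaptotagmin, at 6.11 to 7.71 in the 6 libraries of 4C and 4C11-, Arc, an activity-regulated cytoskeletal protein, at 3.39 to 4.59, and Mapk10, the neuronal JNK kinase, at 3.45 to 4.27. Cav3, the muscle form of caveolin, was at 3.60 to 5.39, and Cavin3, a coat protein of caveolae, at 5.11 to 5.81. Both had at most 2 reads in melan-a and none in 4C11+.

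The innate sensors of cytosolic nucleic acids Aim2 and Zbp1 were both in the set. Aim2 stood at 5.79, 5.65 and 5.93 in 4C and 4.69, 4.63 and 5.10 in 4C11-, with up to 4 reads in melan-a and none in 4C11+. Coagulation factor F5 was at 6.65, 7.30 and 8.28 in 4C and 4.98, 6.17 and 6.58 in 4C11-, with up to 7 reads in melan-a. Factors of other lineages were Cebpa of adipocytes and myeloid cells (3.20 to 4.41), Tlx1 of the spleen (3.82 to 5.19) and Bcl11b of T cells and skin (2.01 to 3.75). Of 3 macrophage markers with a deposited row none was higher or lower without overlap between the phenotypes.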
